A study of Mus musculus with 10 samples.

Results

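The genes described here are those of cholesterol synthesis and of its sterol-sensing control in mouse sarcomas. The rule was membership in the pathway: 18 enzymes that carry acetyl-CoA to cholesterol and 10 genes that sense, transport or regulate sterols. These 28 genes were taken from the 56750 features of a bulk RNA-seq count table. All 28 were matched by symbol to 1 feature each, and all 28 passed the filter on low counts that left 24743 genes to test.

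The study compared dFLEx CDS tumors with KP tumors. The dFLEx group held 3 tumors (170019, 170024 and 170025) of genotype dFLEx CDS +/-, in which a human CIC::DUX4 fusion, knocked in at Rosa26 as a single construct under the CAG promoter, is switched on only after both Cre and FLP recombination. According to the study's methods, young adult mice received Cre and FLPE plasmids by electroporation of hind limb muscle. The KP group held 2 tumors (3800 and 3802) of genotype KRASloxP-STOP-loxP-G12D; p53fl/fl. Both groups are sarcomas raised by recombination of an inducible allele, the labels give neither the age nor the sex of the mice, and how the KP tumors were induced is not given in the sources used here. RNA of each tumor was split into duplicate libraries, so the tumor and not the library was the replicate, and the counts of both libraries were summed. Tumor 3802 entered with 1 library because its duplicate is not analysed here. The 9 libraries held between 20503474 and 46302223 counts. The transgene, as a check of the labels, reached 89.3, 192 and 409 CPM (counts scaled to a fixed library total) in 170019, 170024 and 170025, against 0 counts in 3800 and 6 counts (0.293 CPM) in 3802. Levels below are CPM scaled by trimmed mean of M values (TMM) unless stated otherwise, errors of means are SDs over 3 dFLEx and 2 KP tumors, and fold changes are log2 ratios of dFLEx over KP from edgeR with their SEs. In whole tumors, fewer cells of a type and less RNA per cell cannot be told apart.

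Cells build cholesterol from acetyl-CoA by way of mevalonate, isoprenyl diphosphates, squalene and lanosterol. When sterol in the endoplasmic reticulum is low, Scap escorts the Srebf1 and Srebf2 proteins to the Golgi, where they are cleaved and released to switch on the enzymes, and when sterol is plentiful the Insig proteins hold Scap back. The liver X receptors Nr1h2 and Nr1h3 sense oxidized sterols and switch on the exporters Abca1 and Abcg1. Dividing tumor cells need sterol for new membrane, and the early steps also feed the lipid anchors of proteins such as Ras.

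None of the 28 genes passed an adjusted p of 0.05 between dFLEx and KP tumors in edgeR's quasi-likelihood test, in which 45 of all tested genes (0.182%) did. At an unadjusted p under 0.05 there was 1 member, Tm7sf2, against 10.6% of all tested genes. The median log2 fold change was 0.08 over the 18 synthesis genes and 0.69 over the 10 regulation genes, against -0.18 over all tested genes. The 2 KP tumors differed from each other by more than the groups did in 18 of the 28 genes (64.3%), a share near that of all tested genes (70.6%). Tumor 3802 was the lowest of the 5 for 17 members, and tumor 170025 was the highest for 13. The plot of all 28 genes by tumor shows this spread.

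**Figure D1:**
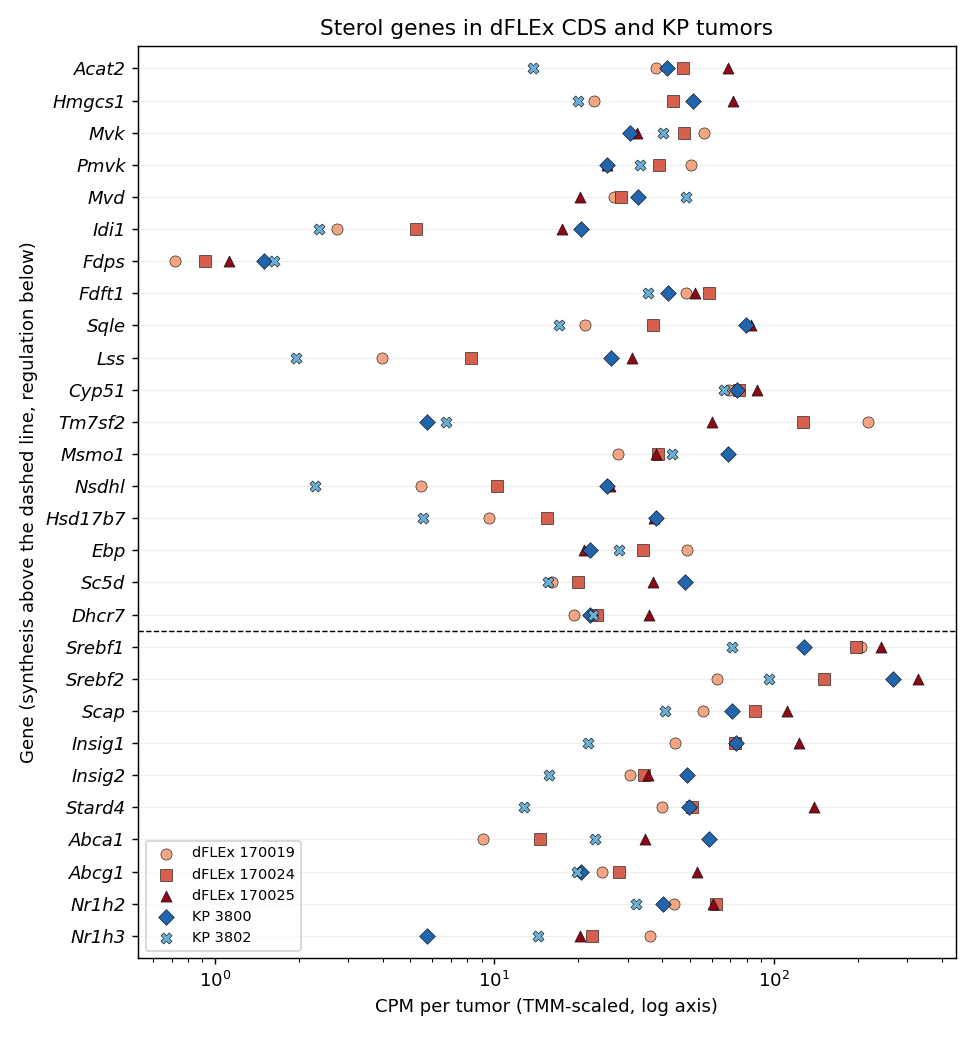
CPM (TMM-scaled, log axis) of each of the 28 genes in the 3 dFLEx tumors (orange to dark red) and the 2 KP tumors (blue), 1 point per tumor, with the synthesis genes in pathway order above the dashed line and the regulation genes below it. Tm7sf2 is the one gene with a wide gap between groups, from 6.7 CPM in the higher KP tumor to 60.1 CPM in the lowest dFLEx tumor, while for genes such as Lss and Nsdhl the tumors of each group spread over most of the axis range of the gene.

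Tm7sf2 encodes a sterol reductase of the endoplasmic reticulum that acts just after Cyp51, removing a double bond from the sterol core. Its level was 217, 127 and 60.1 CPM in 170019, 170024 and 170025, and 5.75 and 6.7 CPM in 3800 and 3802. The groups did not overlap, and the lowest dFLEx tumor stood 8.96-fold above the higher KP tumor. The means were 135 ± 78.9 and 6.23 ± 0.675 CPM, a 21.6-fold difference. The log2 fold change was 4.44 (SE 0.81), with an unadjusted p of 0.000633 and an adjusted p of 0.0936 in edgeR's quasi-likelihood test, so the gene missed the threshold. Over the other fits the adjusted p of Tm7sf2 ran from 5.24e-14 (DESeq2 with libraries taken as independent samples) to 0.268 (edgeR without 170024), and the log2 fold change from 3.86 to 4.78.

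Library CPM are not on the scale of the tumor CPM and are compared only with each other. They were scaled by library totals without TMM. On that scale the duplicate libraries of a tumor lay close together for Tm7sf2, at 184 and 184 CPM in 170019, 119 and 123 in 170024, 56.3 and 60.2 in 170025, and 5.86 and 6.27 in 3800. Its order among the dFLEx tumors ran against that of the transgene: 170019, with the lowest transgene level, had the highest Tm7sf2 level, and 170025 the lowest of the 3. The gene lies on the minus strand of chromosome 19 (chr19:6112851-6118403, GRCm39). Of its exon bases 12.1% are also exon of the neighbor Vps51, and no coding base is shared. Counting ignored strand, so reads over the shared stretch cannot be assigned to one gene. Vps51, a subunit of an endosomal tethering complex, was at 35.8, 40.5 and 36.1 CPM in the dFLEx tumors and 29.6 and 16.7 CPM in the KP tumors (log2 fold change 0.70, SE 0.58). Znhit2, on the other side of Tm7sf2, had a log2 fold change of 0.15 (SE 1.06). Neither neighbor showed a difference of the size seen at Tm7sf2. Lbr, the nuclear envelope protein that can carry out the same reduction, had 19.4, 18.2 and 51.5 CPM in the dFLEx tumors and 67.9 and 9.02 CPM in the KP tumors (log2 fold change -0.37, SE 0.9), so its groups overlapped. Vps51, Znhit2 and Lbr were looked up after the values of Tm7sf2 were known.

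Promoter windows from RefSeq (build GRCm38.p6, 250 bases before to 50 bases after the transcription start) were held for 23 of the 28 members. Those of Abcg1, Fdps, Stard4, Sqle and Fdft1 were not used. The 32851 windows of 27025 genes were searched on both strands, and a letter match is a description of the sequence only. A gene counted once if any of its windows matched, so genes with several windows could match more easily. Dhcr7, Srebf1 and Insig2 had 3 windows each, Pmvk, Scap and Nr1h3 had 2, and the other searched members 1. The sterol element TCACNCCAC was in the window of 1 member, Hmgcs1, and of 1.44% of all genes. CCAAT, the box of NF-Y, was in 18 of 23 members and 41.1% of all genes, and GGGCGG, the box of Sp1, in 20 of 23 members and 38.2%. The E-box CACGTG was in 6 of 23 members (Hsd17b7, Sc5d, Dhcr7, Scap, Insig1 and Abca1) and 8.09% of all genes. The octamer of CIC, the DNA-binding partner in the fusion, was searched first as TGAATGAA, which was in no member and 1.5% of all genes. After the data were seen, TCAATGAA (0.881% of all genes), TGAATGGA (1.4%) and TCAATGGA (0.788%) were added, and 1 match was found, TCAATGAA in Tm7sf2. Any of the 4 forms was in 4.45% of all genes. A direct repeat of the receptor half-site with a spacer of 4 bases (DR4) was in no member and 0.0148% of all genes. Only 3 windows are shown, those of Tm7sf2 as the member with the widest gap between the groups, Hmgcs1 as the one with the sterol element, and Nsdhl as a member that differed widely between tumors of 1 group. The Tm7sf2 window is chr19:6067801-6068100 (minus strand) with the CIC octamer in capitals, starting at position 256 of the window. The Hmgcs1 window is chr13:119690101-119690400 (plus strand) with the sterol element in capitals, starting at position 114. The Nsdhl window is chrX:72918271-72918570 (plus strand) with its 4 matches to CCAAT, on either strand, in capitals.
Tm7sf2: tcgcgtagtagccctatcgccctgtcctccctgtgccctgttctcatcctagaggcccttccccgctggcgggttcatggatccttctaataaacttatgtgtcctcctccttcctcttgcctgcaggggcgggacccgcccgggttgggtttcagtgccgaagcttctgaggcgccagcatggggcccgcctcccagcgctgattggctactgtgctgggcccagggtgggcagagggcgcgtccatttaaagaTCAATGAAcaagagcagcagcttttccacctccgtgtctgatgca
Hmgcs1: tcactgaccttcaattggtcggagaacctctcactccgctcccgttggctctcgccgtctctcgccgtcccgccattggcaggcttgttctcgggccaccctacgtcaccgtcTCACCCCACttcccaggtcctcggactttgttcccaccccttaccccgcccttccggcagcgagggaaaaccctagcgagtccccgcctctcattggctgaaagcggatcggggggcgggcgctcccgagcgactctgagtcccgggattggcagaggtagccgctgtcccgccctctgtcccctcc
Nsdhl: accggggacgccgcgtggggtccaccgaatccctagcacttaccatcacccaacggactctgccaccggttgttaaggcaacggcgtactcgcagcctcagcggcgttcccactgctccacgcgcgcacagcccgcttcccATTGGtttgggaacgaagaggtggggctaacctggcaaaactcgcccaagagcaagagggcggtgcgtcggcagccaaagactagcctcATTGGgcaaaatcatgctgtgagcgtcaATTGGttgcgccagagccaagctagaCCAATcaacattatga

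The first synthesis steps make mevalonate and activate it. Acat2, the cytosolic thiolase that joins acetyl-CoA units, had 38, 47.3 and 68.4 CPM in 170019, 170024 and 170025, and 41.5 and 13.8 CPM in 3800 and 3802. Hmgcs1, the next enzyme, had 22.7, 43.6 and 71.4 CPM against 51.4 and 20 CPM. Another gene shares 34.6% of the coding bases of Hmgcs1, and near-identical copies cover 36.0% of the Acat2 transcript and 20.3% of the Hmgcs1 transcript, so both counts are uncertain. In both genes 3802 was the lowest tumor, 170025 the highest, and 3800 lay among the dFLEx tumors. Their log2 fold changes were 0.89 (SE 0.68, adjusted p = 0.814 in edgeR) and 0.36 (SE 0.72, adjusted p = 0.943). The kinases Mvk and Pmvk, which phosphorylate mevalonate, ran the other way within groups. Mvk had 56.2, 47.8 and 32.5 CPM in the dFLEx tumors and 30.7 and 40.2 CPM in the KP tumors, and Pmvk had 50.6, 38.9 and 25.3 CPM and 25.4 and 33.3 CPM. For both, 170019 was highest and 3802 exceeded 3800. Mvd, the decarboxylase that makes isopentenyl diphosphate, had 26.9, 28.4 and 20.3 CPM against 32.6 and 48.6 CPM. Both KP tumors lay above all 3 dFLEx tumors, by 1.15-fold at the closest, and the log2 fold change was -0.69 (SE 0.55, adjusted p = 0.828).

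The middle steps lead from isoprenyl diphosphates to lanosterol. Idi1, the isomerase, had 2.74, 5.22 and 17.5 CPM in the dFLEx tumors against 20.4 and 2.36 CPM in the KP tumors, an 8.65-fold difference between the 2 KP tumors. Copies cover 33.3% of its transcript. Fdps, the farnesyl diphosphate synthase, was the lowest member per length, with 0.721, 0.919 and 1.12 CPM against 1.5 and 1.63 CPM. Another annotated gene shares 77.0% of the coding bases of Fdps, and reads that overlap more than 1 gene went uncounted, so its level is uncertain. Fdft1, the squalene synthase, had 48.7, 58.8 and 52.2 CPM against 42 and 35.6 CPM. The dFLEx tumors were all higher, by 1.16-fold at the closest (log2 fold change 0.46, SE 0.54, adjusted p = 0.895 in edgeR). Scaled by library totals, the Fdft1 groups overlapped. Near-identical copies elsewhere cover 59.2% of its transcript, so its count is uncertain too.

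Sqle, the squalene epoxidase and a rate-controlling oxygen-dependent step, had 21.1, 37.1 and 83 CPM in the dFLEx tumors and 79.5 and 17 CPM in the KP tumors. Lss, the cyclase that closes the sterol rings, had 3.96, 8.24 and 31.1 CPM and 26.2 and 1.95 CPM. In each the 2 KP tumors nearly spanned the whole range, with 3800 above 3802 by 4.68-fold for Sqle and 13.4-fold for Lss. The log2 fold changes were -0.04 (SE 0.85) and 0.03 (SE 1.17) and were smaller than the spread between tumors. Without 3800 they became 1.65 and 3.07, and without 3802 they were -0.74 and -0.85.

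The late steps turn lanosterol into cholesterol. Cyp51, the lanosterol demethylase, varied least in this arm, with 69.4, 74.9 and 87.5 CPM against 74 and 66.6 CPM (log2 fold change 0.14, SE 0.52, adjusted p = 0.973 in edgeR). Copies cover 28.6% of its transcript. Msmo1, the methyl sterol oxidase, had 27.8, 38.6 and 37.8 CPM against 68.5 and 43.2 CPM. Both KP tumors lay above the dFLEx tumors, by 1.12-fold at the closest, and the log2 fold change was -0.69 (SE 0.55, adjusted p = 0.829), which became -0.15 without 3800. Nsdhl, the dehydrogenase that works with Msmo1, had 5.47, 10.2 and 26 CPM in the dFLEx tumors and 25.4 and 2.28 CPM in the KP tumors. Hsd17b7, the reductase that completes this removal of methyl groups, had 9.55, 15.4 and 37.3 CPM and 38 and 5.53 CPM. For Nsdhl and Hsd17b7 170025 and 3800 stood at nearly equal levels, well above the other tumors. Ebp, the sterol isomerase, resembled Mvk and Pmvk, with 48.9, 34 and 20.9 CPM against 22 and 28 CPM. Sc5d, the desaturase, had 16.1, 20 and 36.9 CPM against 48.1 and 15.6 CPM. Dhcr7, the final reductase, had 19.3, 23.4 and 35.9 CPM against 22 and 22.5 CPM, and copies cover 22.3% of its transcript. Among members whose copies are not given, they cover at most 17.3% of a transcript (Mvd). The adjusted p of the last 5 genes, in edgeR, was between 0.906 for Ebp and 1 for Nsdhl.

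**Figure D2:**
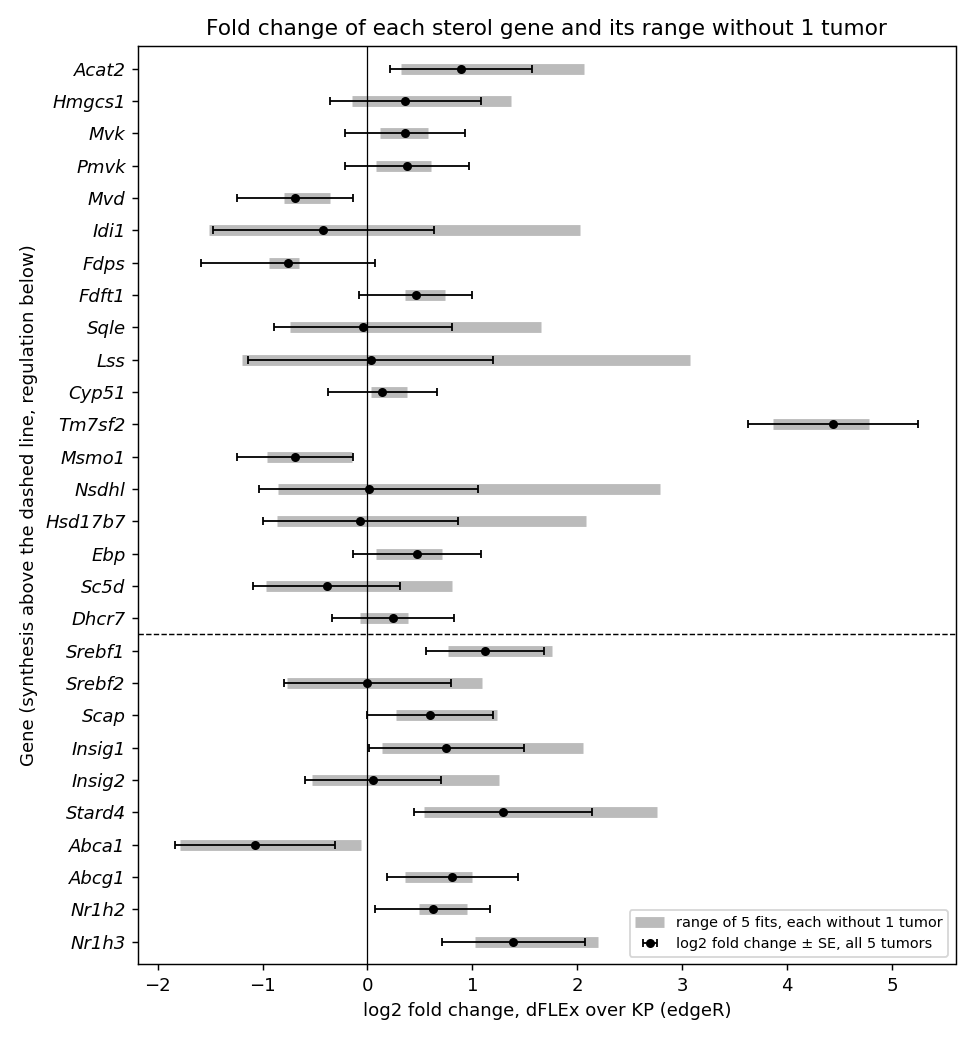
Log2 fold change of dFLEx over KP for each gene (black point) with its SE (bar) and the range of 5 edgeR fits that each left out 1 tumor (gray band), genes ordered as by pathway. Tm7sf2 stands apart at 4.44, with a band from 3.86 to 4.78, while the bands of 10 genes, among them Lss from -1.2 to 3.07, cross 0.

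Among the regulators, Srebf1, the transcription factor better known for lipogenic genes, had 206, 198 and 243 CPM in the dFLEx tumors against 128 and 71.2 CPM in the KP tumors. All dFLEx tumors were higher, by 1.55-fold at the closest, and the means were 216 ± 24 and 99.6 ± 40.1 CPM. The log2 fold change was 1.12 (SE 0.56, unadjusted p = 0.083, adjusted p = 0.587 in edgeR) and ran from 0.77 to 1.76 when 1 tumor was left out. Srebf2, the factor for sterol genes, had 62.8, 151 and 330 CPM and 267 and 96.1 CPM, with means of 181 ± 136 and 182 ± 121 CPM. The 2 factors thus differed in pattern: the Srebf1 groups were apart and the Srebf2 groups covered each other, although this difference was not tested. Scap, the escort, had 55.7, 86 and 112 CPM against 71.1 and 40.7 CPM, and 18.6% of its coding bases are shared with another gene.

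Insig1, the retention factor that the pathway itself induces, had 44.4, 72.8 and 123 CPM against 73.2 and 21.7 CPM (log2 fold change 0.75, SE 0.74). Insig2, its paralog, had 30.6, 34.4 and 35.5 CPM against 48.9 and 15.7 CPM (0.05, SE 0.65). Stard4, a carrier of sterol between membranes, had 40, 51.2 and 139 CPM against 49.9 and 12.8 CPM (log2 fold change 1.29, SE 0.85, adjusted p = 0.753 in edgeR). In all 3 genes tumor 3802 was the lowest and 3800 stood 3.11-fold to 3.9-fold above it.

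Of the liver X receptors, Nr1h3 had 36, 22.3 and 20.3 CPM in the dFLEx tumors against 5.76 and 14.3 CPM in the KP tumors. Every dFLEx tumor was higher, by 1.43-fold at the closest, and the log2 fold change was 1.39 (SE 0.68, unadjusted p = 0.0773, adjusted p = 0.569 in edgeR), between 1.02 and 2.2 with 1 tumor left out. Nr1h2 had 44.1, 62.2 and 60.7 CPM against 40.2 and 32.2 CPM, again without overlap but by 1.1-fold at the closest (log2 fold change 0.62, SE 0.55). Its groups overlapped under library totals, and with the trend of GC content and transcript length removed its log2 fold change was -0.17. Their exporter targets went opposite ways. Abca1, which loads cholesterol onto apolipoproteins, had 9.1, 14.6 and 34.7 CPM against 58.7 and 22.9 CPM (log2 fold change -1.07, SE 0.76, adjusted p = 0.787), while Abcg1, which passes it to mature lipoproteins, had 24.2, 28 and 53.1 CPM against 20.4 and 19.7 CPM (0.81, SE 0.62, adjusted p = 0.817). The Abca1 groups overlapped and its log2 fold change was -0.06 without 3800. The Abcg1 groups did not overlap under TMM, though they did under library totals.

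Counted by order alone, the 3 dFLEx tumors all exceeded both KP tumors for 6 members (Fdft1, Tm7sf2, Srebf1, Abcg1, Nr1h2 and Nr1h3), beside 13.7% of all tested genes. They were all lower than both for 3 members (Mvd, Fdps and Msmo1), beside 11.7%. Of these 6, 4 are among the 10 regulation genes, and none of those 10 lay wholly below. Compared with library totals, TMM raised the log2 fold changes by 0.30 (median over all tested genes). Under library totals the upper set shrank to 3, Tm7sf2, Srebf1 and Nr1h3 (10.0% of all genes), and the lower set held the same 3 members (15.5%). After removal of the trend with GC content and length, the upper set was Acat2, Tm7sf2, Srebf1, Insig1, Stard4 and Nr1h3 (12.8%) and the lower set gained Abca1 (16.8%). Tm7sf2, Srebf1 and Nr1h3 were above, and Mvd, Fdps and Msmo1 below, under all 3 scalings.

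Other tools gave more calls across the genome and among the members. DESeq2 on the tumor sums called Tm7sf2 (1 of 28, beside 6.13% of all genes), and limma-voom, with tumor entered as random effect over the libraries, called the same gene (1 of 28, beside 2.78%). Treating the 9 libraries as independent samples, which counts each tumor's RNA more than once, edgeR called Tm7sf2, Msmo1 and Srebf1 (3 of 28, beside 17.1%), and DESeq2 called those and Abca1, Nr1h2 and Nr1h3 (6 of 28, beside 25.8%). The shares of members were 10.7% and 21.4%, below the shares of all genes.

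The pattern shared by most members set tumors of 1 group against each other. Tumors 170025 and 3800 were both above 170019 and 3802 for 15 of the 28 members, beside 26.5% of all tested genes: Acat2, Hmgcs1, Idi1, Sqle, Lss, Cyp51, Nsdhl, Hsd17b7, Sc5d, Srebf2, Scap, Insig1, Insig2, Stard4 and Abca1. The reverse held for 3, Mvk, Pmvk and Ebp, beside 32.9%. The first count was 16 under library totals (26.7% of all genes) and 11 after removal of that trend (19.8%). Within the dFLEx tumors, 18 members followed the increasing order of the transgene from 170019 to 170025, beside 29.0% of all genes, and 5 the decreasing order (Mvk, Pmvk, Tm7sf2, Ebp and Nr1h3), beside 32.0%. With 3 tumors this order is not tested, and it is the same order in which 170025 and 170019 hold the ends. Total counts rose in that order too (47462244, 60557154 and 82138251), so transgene level and sequencing depth cannot be told apart here. From 3802 to 3800 the ratio was 13.4 for Lss, 11.2 for Nsdhl, 8.65 for Idi1 and 6.87 for Hsd17b7, and from 170019 to 170025 it was 7.86, 4.76, 6.4 and 3.9. The median log2 ratio over the members was 0.83 for 3800 over 3802 and 0.87 for 170025 over 170019, against -0.19 and -0.15 over all tested genes.

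**Figure D3:**
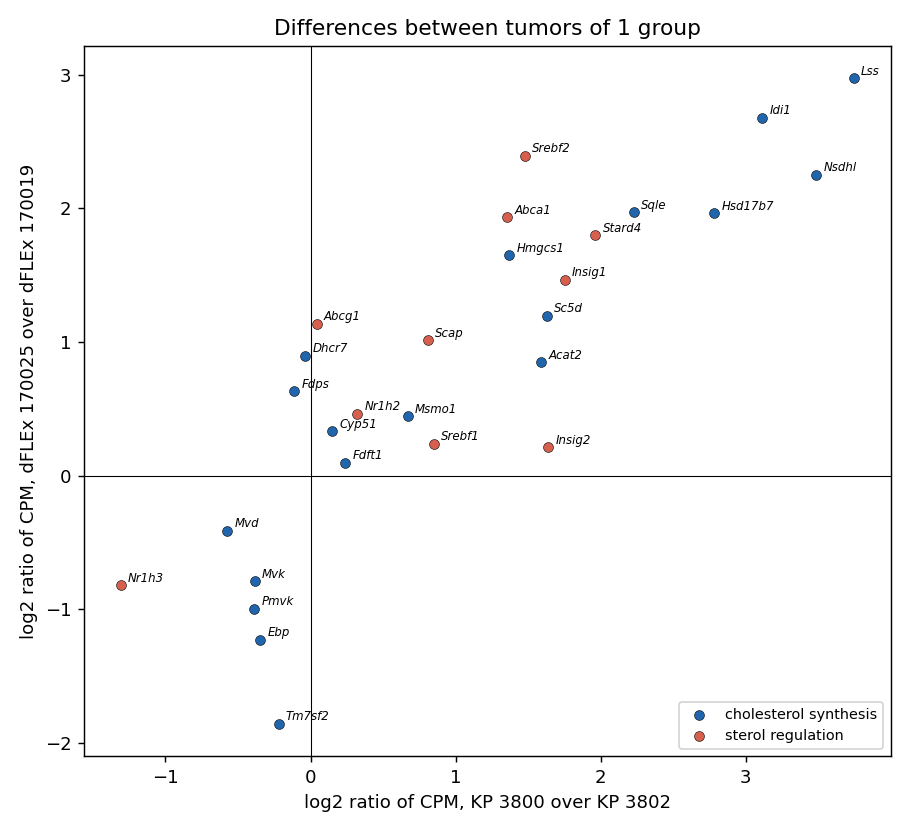
Log2 ratio of CPM between the 2 KP tumors (3800 over 3802, horizontal) and between 2 dFLEx tumors (170025 over 170019, vertical), 1 point per gene, synthesis in blue and regulation in red. Lss, Nsdhl, Idi1 and Hsd17b7 lie farthest to the upper right, and Mvk, Pmvk, Ebp, Mvd, Nr1h3 and Tm7sf2 lie at the lower left.

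**Figure D4:**
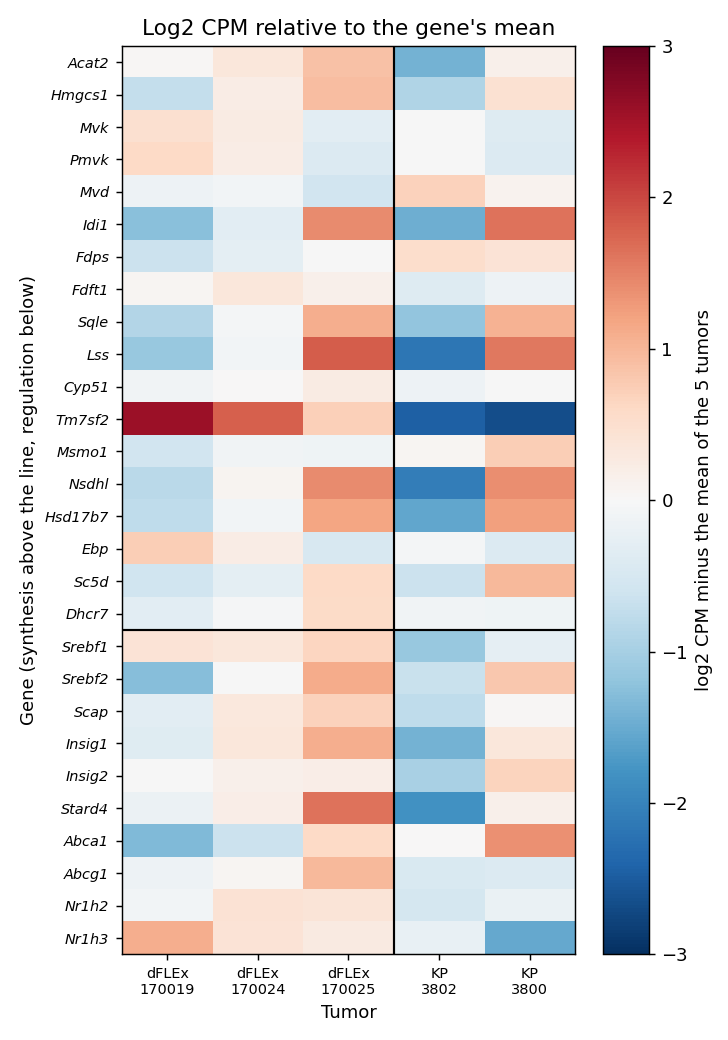
Log2 CPM of each gene minus its mean over the 5 tumors (color scale), tumors in columns with the dFLEx tumors left of the line, genes in pathway order. The columns of 170025 and 3800 are mostly above the gene's mean and that of 3802 mostly below, and Tm7sf2 is the row with the widest split at the line between groups.

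Several measures moved with this pattern, and their part in it was not tested. Total counts were 82138251 in 170025 and 70120584 in 3800, against 60557154 in 170024, 47462244 in 170019 and 20503474 in 3802. The 2 high tumors thus had the most counts and the 2 low ones the fewest, 3802 with only 1 library. The 15 members had a median exon length of 4866 bases, the 3 reverse members 2310. Among all genes averaging 1 CPM or more, those with the first pattern had a median of 5821 exon bases, those with the reverse 2205, and all of them 4274. Proliferation markers had summed levels of 804 to 1226 CPM in the dFLEx tumors and 500 to 1277 in the KP tumors, with 3802 lowest and 3800 highest. Of these markers 7 of 10 showed the pattern of the 15, beside 26.5% of all tested genes. Duplicate libraries of the same RNA differed little in the pattern genes of 170024, 170025 and 3800, by at most 0.33 on the log2 scale (library CPM). In 170019 the first library exceeded the second by more than 1 on that scale for Idi1 (3.07 against 1.5 CPM), Lss (5.01 against 1.54) and Nsdhl (6.78 against 2.29), and for Fdps outside the pattern (0.929 against 0.264). The low level of 170019 in these genes thus varied between preparations of 1 RNA sample. For Idi1, Lss and Nsdhl both of its libraries stayed below those of 170025.

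Per transcript length, in TPM (length-scaled transcript abundance) computed from the counts and the exon lengths in the table, the highest members averaged over the 5 tumors were Srebf1 (77.9 TPM), Srebf2 (73.5), Insig1 (60.5) and Pmvk (49.4), and the lowest were Fdps (0.753), Lss (4.05), Abca1 (7.97) and Idi1 (8.41). The order differed by tumor. The highest member was Tm7sf2 in 170019 (87.1 TPM, against 64.4 for Srebf1), Srebf1 in 170024 (81.6), Srebf2 in 170025 (145) and 3800 (127), and Mvd in 3802 (60.4, against 29.2 for Srebf1). The summed TPM of the 18 synthesis genes was 358, 438 and 616 in 170019, 170024 and 170025, and 591 and 296 in 3800 and 3802. That of the 10 regulation genes was 202, 332 and 683, and 474 and 151. Both TPM sums were lowest in 3802 and highest in 170025, with 3800 between dFLEx tumors. Summed as CPM, which gives long genes more weight, the synthesis genes had 685, 659 and 745 in the dFLEx tumors against 655 and 405 in the KP tumors, so there both KP tumors were lower, 3800 by little. The regulation genes had 553, 721 and 1152 CPM against 764 and 347 CPM, which overlapped.

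None of the genes in the neighboring pathways passed an adjusted p of 0.05 in edgeR, and each list is described by its counts. Fatty acid synthesis, the other arm that the Srebf factors control, had 14 of 20 genes with a log2 fold change above 0 and a median of 0.54. Its ends were Thrsp, a lipogenic nuclear protein (2.68, SE 1.03), and Lpin1, a phosphatidate phosphatase (2.12, SE 0.83), against Fasn, the fatty acid synthase (-1.03, SE 0.93), and Acly, which supplies cytosolic acetyl-CoA (-0.83, SE 0.78). Fasn had 33.7, 73 and 205 CPM in the dFLEx tumors and 359 and 65.5 CPM in the KP tumors. The order of the 15 sterol genes above held for 14 of the 20 genes, beside 26.5% of all tested genes. Of the 12 genes for processing of the Srebf proteins and sterol-regulated degradation, 10 had that order too, and the median was -0.18. The extremes there were the coat protein Sec23a (1.02, SE 0.91) and Spring1 (0.60, SE 0.58) on one side and the membrane scaffold Erlin1 (-1.68, SE 0.6) and the ubiquitin ligase Rnf145 (-0.77, SE 0.87) on the other.

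Uptake, transport and esterification of cholesterol had 9 of 20 genes above 0, with a median of -0.21. Vldlr, a lipoprotein receptor, had 32.3, 61.1 and 192 CPM in the dFLEx tumors against 15.9 and 6.79 CPM in the KP tumors (log2 fold change 3.07, SE 0.96, unadjusted p = 0.0128, adjusted p = 0.276 in edgeR). Soat1, which esterifies cholesterol for storage, had 36.3, 28.8 and 40.3 CPM against 145 and 85.9 CPM (-1.71, SE 0.55, adjusted p = 0.289). These groups did not overlap, with Vldlr higher and Soat1 lower in every dFLEx tumor. The related receptor Lrp8 had 1.81 (SE 1.21) and the sterol transporter Gramd1c -1.77 (SE 0.9). Among 10 genes known to respond to the liver X receptors, 5 were above and 5 below 0, with a median of -0.13. Arl4c, a small GTPase, had 21, 23.8 and 35.2 CPM against 227 and 63 CPM (-2.44, SE 0.68, adjusted p = 0.221). Abca5 had -1.68 (SE 0.78), and Lpl, the lipoprotein lipase, and Smpdl3a had 1.06 (SE 0.69) and 0.83 (SE 0.57).

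Markers of other cells in the tumors also differed, with no marker passing the adjusted threshold and none at 0 counts throughout, and their part in the values above was not tested. Macrophage markers, cells in which Nr1h3, Abca1, Abcg1 and Soat1 are known to be active, had summed levels of 1181 to 1390 CPM in the dFLEx tumors and 2907 to 5840 CPM in the KP tumors, with 7 of 10 lower in every dFLEx tumor. Of these 4 genes, Soat1 was lower in every dFLEx tumor and Abca1 had a log2 fold change of -1.07 with overlapping groups, while Nr1h3 and Abcg1 were higher in every dFLEx tumor. Adipocyte markers ran from 297 to 441 against 14.6 to 207 CPM (6 of 8 higher in every dFLEx tumor), and myocyte markers from 10167 to 38156 against 1538 to 5034 CPM (7 of 10). Endothelial markers ran from 326 to 566 against 185 to 207 CPM (2 of 8), fibroblast markers from 4156 to 13174 against 1968 to 4401 CPM (3 of 8), and pericyte markers from 696 to 1372 against 406 to 723 CPM (2 of 7). T and B cell markers ran from 8.19 to 10.6 against 9.75 to 59.4 CPM, with 2 of 8 lower in every dFLEx tumor. Beside these counts, 13.7% of all tested genes were higher and 11.7% lower in every dFLEx tumor. The summed ranges of the fibroblast, pericyte, and T and B cell markers overlapped between groups. Tumors 170025 and 3800 were both above 170019 and 3802 for 5 of 8 endothelial, 4 of 7 pericyte and 3 of 8 fibroblast markers. The same held for 2 of 10 macrophage, 2 of 10 myocyte, 0 of 8 adipocyte and 0 of 8 T and B cell markers.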

How the data were processed

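Bulk RNA-seq was run on rRNA-depleted libraries of 5 mouse tumors. The authors trimmed reads with Trimmomatic 0.39, aligned them with STAR 2.7.10a to mm39 (GRCm39) with the transgene appended, and deposited raw counts per gene from featureCounts 2.0.3. Per the file header, counting ignored strand, dropped reads that overlap several genes, and counted the mates of a pair apart. Of the nonzero counts 57.5% to 61.2% per library were even.

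Counts of duplicate libraries were summed per tumor, filtered with filterByExpr, scaled by TMM and tested with edgeR's quasi-likelihood test with Benjamini-Hochberg adjustment at 0.05. edgeR was 4.0.16, DESeq2 1.42.0 and limma 3.58.1. Symbols came from GENCODE M39 (98.7% of features). The p-values measure the spread between tumors, and with 3 against 2 tumors only large differences could be called: on simulated data for this comparison (22464 genes), 0% of genes changed by 2 and 55% of those changed by 4 on the log2 scale were recovered. The changed genes were drawn only from genes above a minimum mean CPM, so these shares do not describe genes of low level such as Fdps. The members and lists were chosen with earlier results of these data known. All members were named, and of each neighboring list the 2 highest and 2 lowest log2 fold changes, since none passed the adjusted p. A copy was an alignment of at least 150 bases at 95% identity. Alternatives covered tool, scaling, filter, duplicates, left-out tumors and GC content with length. No values of the authors' own comparisons were used.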

Additional observations from a re-analysis of the deposited data

How the results depend on the processing

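The count of 45 genes called across the genome moved with the unit and the tool, and none of the members was called on tumor sums by edgeR after filtering. With libraries as independent samples edgeR called 3344 genes and 3 members, and DESeq2 called 5042 and 6. DESeq2 on tumor sums called 1516 genes and 1 member, and limma-voom with tumor entered as random effect 543 and 1. With no filter, edgeR called 880 of 44382 genes tested and 1 of the 28 members. A filter at a mean of 1 CPM gave 80 genes and removal of the GC content and length trend, chosen after the data were seen, 146, with no member called in either. With 1 tumor left out the count ran from 0 (without 170019, and without 170024) to 414 (without 3802), with 9 without 170025 and 8 without 3800, and no member was called. The fit with the duplicate number as a replicate block called 2476 of 19538 genes tested and 2 of the 28 members, Tm7sf2 and Srebf1. The numbers only name the libraries, since the R1 minus R2 difference correlated between -0.00936 and 0.0639 over 6 pairs of tumors. Tm7sf2 was called in 6 of 17 alternative fits. The median log2 fold change of the synthesis genes was between -0.34 and 0.78 with 1 tumor left out, and that of the regulation genes was above 0 in each of the 17 fits.

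Direction held in all 17 fits for 14 members. For the others the cause of the change was not tested, and with 1 tumor left out the log2 fold change ran from -0.15 to 1.37 for Hmgcs1, -1.51 to 2.03 for Idi1, -0.74 to 1.65 for Sqle, -1.2 to 3.07 for Lss, -0.85 to 2.79 for Nsdhl, -0.86 to 2.08 for Hsd17b7, -0.97 to 0.81 for Sc5d, -0.07 to 0.39 for Dhcr7, -0.77 to 1.09 for Srebf2 and -0.53 to 1.25 for Insig2. The upper end came without 3800 in each of these ranges. Under library totals the sign turned for Lss (-0.14), Cyp51 (-0.15), Nsdhl (-0.17), Dhcr7 (-0.05) and Insig2 (-0.19), and under upper quartile scaling for Cyp51 (-0.07) and Dhcr7 (-0.05). With libraries as independent samples it turned for Lss (-0.32 in edgeR and -0.35 in DESeq2), Nsdhl (-0.32 and -0.34) and Insig2 (-0.12 and -0.13), and under the replicate block for Lss (-0.32), Nsdhl (-0.32) and Insig2 (-0.13). Nsdhl was at -0.02 in DESeq2 on tumor sums and with DESeq2 size factors, and Cyp51 at -0.02 with the filter at 1 CPM. Sqle was at 0.00 in limma-voom and 0.01 with no filter, Srebf2 at 0.07 with no filter, and Hsd17b7 at 0.12 in limma-voom and 0.01 with the first library of each tumor. Removal of the GC content and length trend turned Pmvk (-0.02), Sqle (0.00), Nsdhl (-0.23), Hsd17b7 (0.29), Ebp (-0.09), Dhcr7 (-0.15), Insig2 (-0.07) and Nr1h2 (-0.17). All members but Fdps lay above 1 CPM in every tumor.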

Other observations

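The branches that leave the pathway showed no gene past an adjusted p of 0.05 in edgeR. Of 13 genes of the isoprenoid branch, which makes dolichol, ubiquinone and prenyl anchors, 10 had a log2 fold change above 0, with a median of 0.07. Dhdds and Dolk, which make dolichol and its phosphate, had 0.76 (SE 0.55) and 0.51 (SE 0.58), and the ubiquinone tail synthase subunits Pdss1 and Pdss2 had -0.7 (SE 0.83) and -0.37 (SE 0.64). Of 9 oxysterol and bile acid enzymes 7 were tested, and Hsd3b7 had 0 counts in all tumors. Cyp46a1, a cholesterol hydroxylase known mainly from neurons, had 3.13, 3.57 and 3.88 CPM in the dFLEx tumors against 0.94 and 0.975 CPM in the KP tumors (1.88, SE 0.72, adjusted p = 0.402 in edgeR). Ch25h, a hydroxylase induced in inflammation, had 1.67, 2.62 and 2.48 CPM against 4.58 and 14.9 CPM (-2.1, SE 0.71, adjusted p = 0.318). Cyp7b1, which hydroxylates oxysterols, had 5.35, 5.12 and 5.47 CPM against 1.97 and 2.28 CPM (1.32, SE 0.64), and Star, a mitochondrial sterol carrier, had -0.52 (SE 0.64). Each of these 4, named for the highest and lowest log2 fold changes of the list, was without overlap between groups. The rest of the 7 overlapped. Among all tested genes, 13.7% were wholly above and 11.7% wholly below in the dFLEx tumors.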
